A study of Oryza sativa Japonica Group and Oryza sativa Indica Group with 10 samples.

Results

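OsAOC encodes allene oxide cyclase of rice, the plastid enzyme that sets the ring of the jasmonate precursor OPDA (oxo-phytodienoic acid). The gene is also listed under the names AOC3, CPM2 and HB. It was followed here, under the identifier LOC4333201, through 1 probe set of the 57258 rice probe sets on the array. This is the only probe set assigned to OsAOC and to no other gene, and 22436 probe sets in all are assigned to a single gene in this way. The study hybridized labeled genomic DNA, and labeled RNA of shoots and young panicles, of 2 rice cultivars to the Affymetrix GeneChip rice array. On this array a transcript is read by a set of PM (perfect match) and MM (mismatch) probes. The study used the arrays to detect sequence polymorphisms. The arrays described here hold total RNA of young panicles 2 cm long from 93-11, an indica cultivar, and from Nipponbare, a japonica cultivar, with 5 biological replicates of each. No treatment, mutant or transgene was involved. The gene was chosen by its difference in signal between the cultivars on these same arrays, so its own values are a description and carry no test.

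Jasmonates are lipid hormones made from linolenic acid of plastid membranes. Lipoxygenase and allene oxide synthase make an unstable allene oxide, allene oxide cyclase turns it into OPDA, OPDA reductase and beta-oxidation in the peroxisome give jasmonic acid, and JAR1 joins it to isoleucine. The conjugate is bound by COI receptors together with JAZ repressors of the TIFY family, whose breakdown frees transcription factors. In rice, plants that lack allene oxide cyclase are jasmonate deficient and have defective flowers and poor male fertility, and the repressor OsTIFY3 is known as the spikelet gene EG2.

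OsAOC gave a strong signal in both cultivars and a higher one in 93-11. The deposited signal, on a linear scale, was 3365, 2459, 1690, 2635 and 2854 in the 93-11 replicates 1 to 5, against 1133, 1293, 1389, 934 and 791 in the Nipponbare replicates 1 to 5. The cultivars did not overlap, and the lowest 93-11 array was 1.22 times the highest Nipponbare array. Means were 2601 ± 612 in 93-11 and 1108 ± 247 in Nipponbare (SD, n = 5 each), a ratio of 2.35. On the scale log2(signal + 16) the difference, 93-11 minus Nipponbare, was 1.21.

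The arrays had not been brought to one level: the trimmed mean over all probe sets ran from 196 to 236 on the 93-11 arrays and from 205 to 377 on the Nipponbare arrays. Each array was therefore also scaled to a common trimmed mean of 245. The scaled OsAOC signal was 3506, 3079, 1804, 3288 and 3363 in 93-11, against 1022, 841, 1258, 875 and 948 in Nipponbare. Again the cultivars did not overlap, and in 93-11 all replicates but the third lay close together, while the third lay nearest to Nipponbare. Scaled means were 3008 ± 691 in 93-11 and 989 ± 166 in Nipponbare (SD, n = 5 each), a ratio of 3.04 and a difference of 1.57 on the log2(signal + 16) scale. Without 93-11 replicate 3 the scaled mean of 93-11 was 3309 ± 178 (SD, n = 4), the ratio 3.35 and the difference 1.74. Most probes were designed on japonica transcripts, and a difference in transcript level cannot be told apart from a difference in how well the probes of this set match each cultivar. In panicle RNA, fewer cells that express a gene and less RNA per cell cannot be told apart either.

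**Figure D1:**
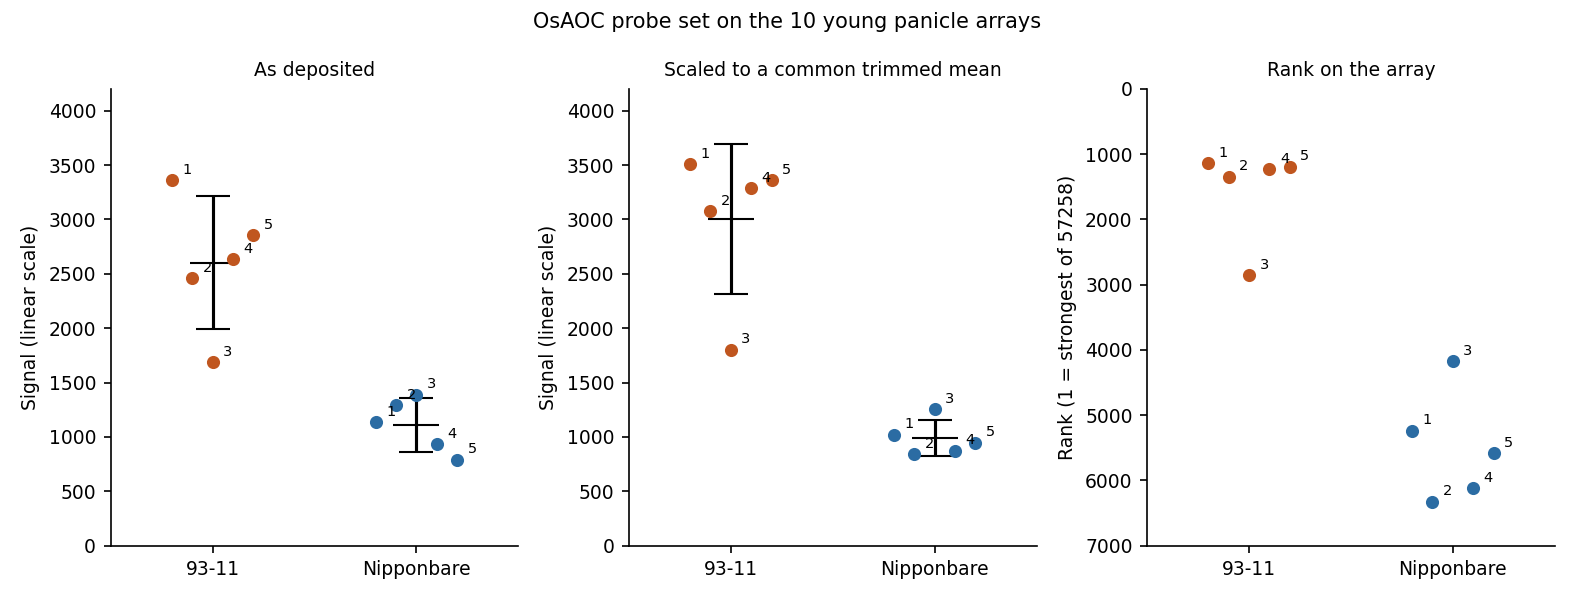
Signal of the OsAOC probe set on each array (points, with the replicate number) on a linear scale, as deposited (left) and scaled to a common trimmed mean (middle), with the mean and SD of 5 arrays as bars, and its rank on each array with rank 1 at the top (right). The 93-11 arrays are all above the Nipponbare arrays in each panel, and 93-11 replicate 3 is the 93-11 array nearest to them.

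The rank of OsAOC among the 57258 probe sets of an array does not depend on the scaling of that array. It gives the position on the array and not an amount, since probe sets differ in how brightly they read the same amount of RNA. OsAOC ranked 1137, 1343, 2852, 1223 and 1189 on the 93-11 arrays, against 5238, 6326, 4176, 6117 and 5579 on the Nipponbare arrays. Its signal was 77.2 to 155 times the array median in 93-11 and 32.4 to 48.9 times the array median in Nipponbare. Ordered by the scaled cultivar mean, OsAOC stood at rank 1401 in 93-11 and 5418 in Nipponbare, and among the 22436 single-gene probe sets at rank 1215 in 93-11 and 4590 in Nipponbare. As deposited, the ranks over all probe sets were 1415 in 93-11 and 5477 in Nipponbare. The position of OsAOC thus differed between the cultivars on either set of values, and no array of one cultivar had a rank within the range of the other.

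Over all rice probe sets, limma (Benjamini-Hochberg adjusted p, threshold 0.05) called 4490 of 57258 (7.84%) higher and 5274 (9.21%) lower in 93-11 on the scaled values. On the values as deposited the split was 951 (1.66%) higher and 6788 (11.9%) lower. The median log2 difference over all probe sets was 0.03 scaled and -0.16 as deposited. Ordered by difference, with the largest rise in 93-11 first, OsAOC was number 379 of 57258 scaled and number 402 as deposited. Most of the probe sets above it were at or below log10 2.5 in at least 1 cultivar. Of the probe sets, 11226 exceeded a mean log10 signal of 2.5 in 93-11 and in Nipponbare, and OsAOC was number 17 of these. The study set its limit for highly expressed genes at the same figure, but on the median of the raw PM intensities of a probe set, which is another quantity than the mean of scaled probe set signals used here. In that group the central 90% of scaled differences, a range between the 5% and 95% points, ran from -0.55 to 0.56 with a median of 0.11. As deposited OsAOC was number 20 of 11006 such probe sets, and the same range ran from -0.86 to 0.23.

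**Figure D2:**
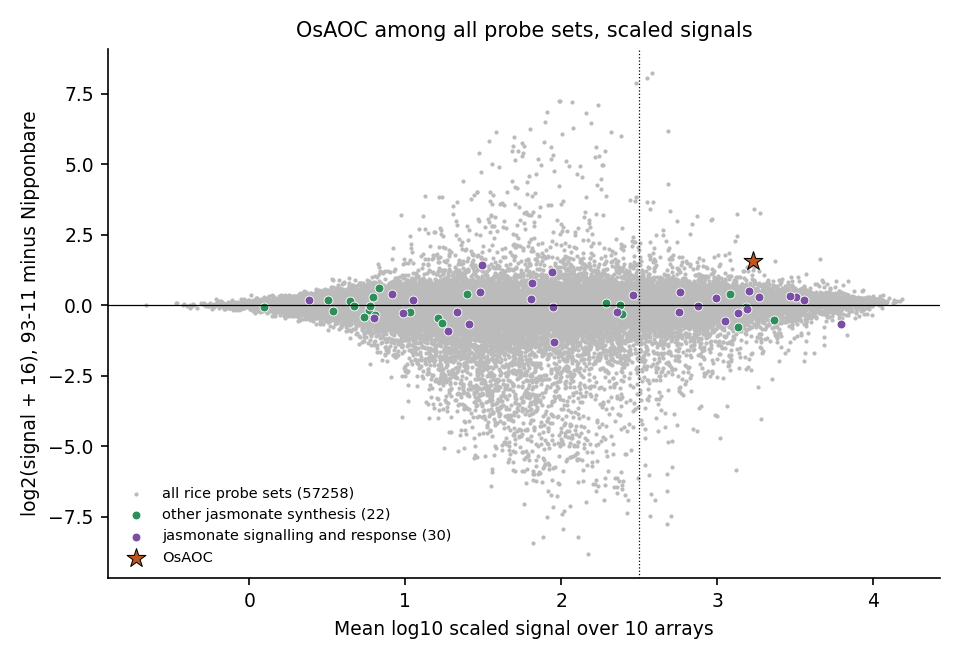
Difference in log2(signal + 16), 93-11 minus Nipponbare, against the mean log10 scaled signal over 10 arrays, for all 57258 rice probe sets (grey), the other jasmonate synthesis probe sets (green), the signalling and response probe sets (purple) and OsAOC (star). The dotted line marks a log10 signal of 2.5, right of which OsAOC lies above nearly all probe sets with a difference of 1.57.

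The spread of OsAOC between replicates was compared with that of probe sets of similar signal. The SD of log2(signal), scaled, was 0.40 in 93-11 and 0.23 in Nipponbare. Over the 3969 probe sets of mean log10 signal 3.0 to 3.5 the median SD was 0.16 in 93-11 and 0.14 in Nipponbare, and 94.6% of them in 93-11 and 84.0% in Nipponbare had a smaller SD than OsAOC. As deposited the SD of OsAOC was 0.37 in 93-11 and 0.34 in Nipponbare, and 91.2% in 93-11 but 49.8% in Nipponbare had a smaller one, so in Nipponbare its spread was near the median on those values. On the scaled values the spread in 93-11 came mostly from replicate 3, without which the 4 other arrays differed from their mean by an SD of 178 signal units. As deposited that SD was 393, against 612 with replicate 3. The GAPDH 3'/5' ratio, a sign of how far the RNA or its labeling is biased to the 3' end, was 6.31, 4.74, 3.38, 4.05 and 6.15 in 93-11, against 4.41, 3.15, 2.82, 3.02 and 5.72 in Nipponbare. Replicate 3 had the lowest ratio in both cultivars, and it had the lowest OsAOC signal of 93-11 but the highest OsAOC signal of Nipponbare. The part of this ratio in the OsAOC signal was not tested.

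The tissue label was checked against marker genes. Of the 57258 rice probe sets, 11226 were above a mean log10 scaled signal of 2.5 in both cultivars. Of 18 probe sets of 10 panicle genes, 14 were above it in both. Limma called 2 higher and 1 lower in 93-11 on the scaled values (1 and 1 as deposited). Of all single-gene probe sets, 12.6% were called higher and 13.6% lower on the scaled values, and 1.68% and 17.8% as deposited. The floral organ gene OsMADS1 averaged 4158 ± 148 in 93-11 and 4318 ± 541 in Nipponbare (SD, n = 5 each; -0.05, SE 0.09, adjusted p = 0.804). The 2 panicle genes called higher were RFL and LAX1, both genes of panicle branching. RFL read 1452, 1263, 867, 1345 and 1395 in 93-11, against 616, 653, 468, 720 and 580 in Nipponbare, without overlap (1.03, SE 0.15, adjusted p = 0.000171, and 0.68 as deposited, adjusted p = 0.0375). On the scaled values its lowest 93-11 array was replicate 3, as for OsAOC. Its lowest scaled Nipponbare signal was also on replicate 3, where OsAOC was highest. LAX1 averaged 509 ± 99.2 in 93-11 and 277 ± 81.2 in Nipponbare (0.88, SE 0.21, adjusted p = 0.00846), a call not made as deposited (0.54, adjusted p = 0.215). The meristem gene OSH1 was called lower with 1 of 2 probe sets (-1.30, SE 0.08, adjusted p = 4.38e-08) and differed by 0.15 with the other (adjusted p = 0.36). No probe set of the endosperm, root, or pollen and tapetum lists was above log10 2.5 in both cultivars.

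Among the green leaf genes (3 genes, 7 probe sets), CAB2R and PSAH were lower in 93-11 on both sets of values, and RBCS was not called lower. Limma called 3 probe sets lower and 1 higher in 93-11 on the scaled values (3 and 0 as deposited). Of all single-gene probe sets, 13.6% were lower and 12.6% higher on the scaled values, and 17.8% and 1.68% as deposited. Both probe sets of the light-harvesting protein gene CAB2R were lower, with 657 ± 674 and 205 ± 205 in 93-11 and 7949 ± 741 and 3689 ± 470 in Nipponbare (SD, n = 5 each; adjusted p = 1.79e-05 and 2.33e-06). The photosystem gene PSAH was lower too, with 59.9 ± 41.8 in 93-11 and 430 ± 108 in Nipponbare (-2.75, SE 0.38, adjusted p = 0.000131). For RBCS, the small subunit of Rubisco, 1 of 4 probe sets was called higher (101 ± 25.9 in 93-11 and 47.8 ± 12.3 in Nipponbare, 0.87, SE 0.20, adjusted p = 0.00679), and the other 3 were not called. This RBCS call was not made as deposited (0.58, adjusted p = 0.0872). The summed signal of the list, which CAB2R dominated, was 581 to 2964 on the 93-11 arrays and 10549 to 14323 on the Nipponbare arrays. The part of the panicle and green leaf genes in the OsAOC difference was not tested.

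The other genes of jasmonate synthesis showed no common direction. Of 22 probe sets of 19 genes, limma called 2 higher and 2 lower in 93-11 on the scaled values, and none had a rise as large as that of OsAOC. The list was drawn up by enzyme family, so a member need not serve jasmonate synthesis. Of the 2 rises, 1 was the 9-lipoxygenase r9-LOX1. The shares of all single-gene probe sets were 12.6% higher and 13.6% lower. The median difference of the list was -0.06, against 0.03 over all probe sets. As deposited limma called 0 higher and 2 lower (1 higher at an unadjusted p under 0.05), beside 1.68% higher and 17.8% lower of the single-gene probe sets. The methods' t-test on the scaled values called 1 higher. Most of these genes were barely read in young panicles: 15 of the 22 probe sets were below a mean log10 signal of 2.0 in both cultivars and 4 were above 2.5 in both.

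At the start of the pathway, OsSSI2, a stearoyl-ACP desaturase that supplies unsaturated fatty acids, fell in 93-11. Its scaled signal was 1906, 1957, 1962, 1865 and 1949 in 93-11, against 2621, 2842, 3013, 2520 and 2852 in Nipponbare, a difference of -0.52 (SE 0.07, limma adjusted p = 9.8e-05). The cultivars did not overlap, and as deposited the difference was -0.87 and was also called (adjusted p = 0.00171). LOX5, a lipoxygenase, gave 1002, 986, 1238, 1107 and 934 in 93-11, against 2260, 1843, 1827, 1717 and 1406 in Nipponbare. It fell by 0.76 on the log2 scale (SE 0.12, limma adjusted p = 0.000383) with no overlap, and by 1.11 as deposited (adjusted p = 0.00148). The 9-lipoxygenase r9-LOX1 was called higher (0.60, SE 0.18, limma adjusted p = 0.0332) from weak signals of 14.96 ± 7.59 in 93-11 and 4.17 ± 3.29 in Nipponbare that overlapped, and the call was not made as deposited (0.48, adjusted p = 0.108). It was lost without 93-11 replicate 1 or 4 or without Nipponbare replicate 1, 2, 3 or 5 (adjusted p 0.0627 to 0.0855).

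Allene oxide synthase makes the substrate of OsAOC, and none of its 4 probe sets was called. AOS1 averaged 221 ± 25.6 in 93-11 and 280 ± 47.8 in Nipponbare (difference -0.31, SE 0.13, limma adjusted p = 0.138). AOS2 averaged 32.0 ± 4.46 in 93-11 and 20.2 ± 5.84 in Nipponbare (0.42, SE 0.17, limma adjusted p = 0.129). AOS3 and AOS4 stayed below a mean signal of 12 in both cultivars. The step directly before OsAOC was therefore read at low signal, with differences of either sign that did not pass the test.

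After OsAOC, OPDA is reduced by OsOPR7, the peroxisomal reductase of jasmonate synthesis in rice. OsOPR7 gave 1427, 1507, 1296, 1150 and 1567 in 93-11, against 1164, 1069, 1145, 887 and 1020 in Nipponbare. The cultivars overlapped by 1 array of each, and limma called the scaled difference (0.39, SE 0.10, adjusted p = 0.0183). As deposited the difference was 0.04 (adjusted p = 0.94), and without 93-11 replicate 2 the scaled call was lost (adjusted p = 0.0528). None of the other 7 probe sets of OPDA reductases was called, and apart from OsOPR8 (201 ± 20.7 in 93-11 and 189 ± 27.3 in Nipponbare) they stayed below a mean signal of 31. MFP, a multifunctional protein of beta-oxidation, averaged 1506 ± 134 in 93-11 and 1566 ± 132 in Nipponbare (-0.06, SE 0.09, limma adjusted p = 0.759). OsJAR1, which makes the active conjugate, averaged 211 ± 37.8 in 93-11 and 249 ± 37.7 in Nipponbare (-0.23, SE 0.14, limma adjusted p = 0.349).

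**Figure D3:**
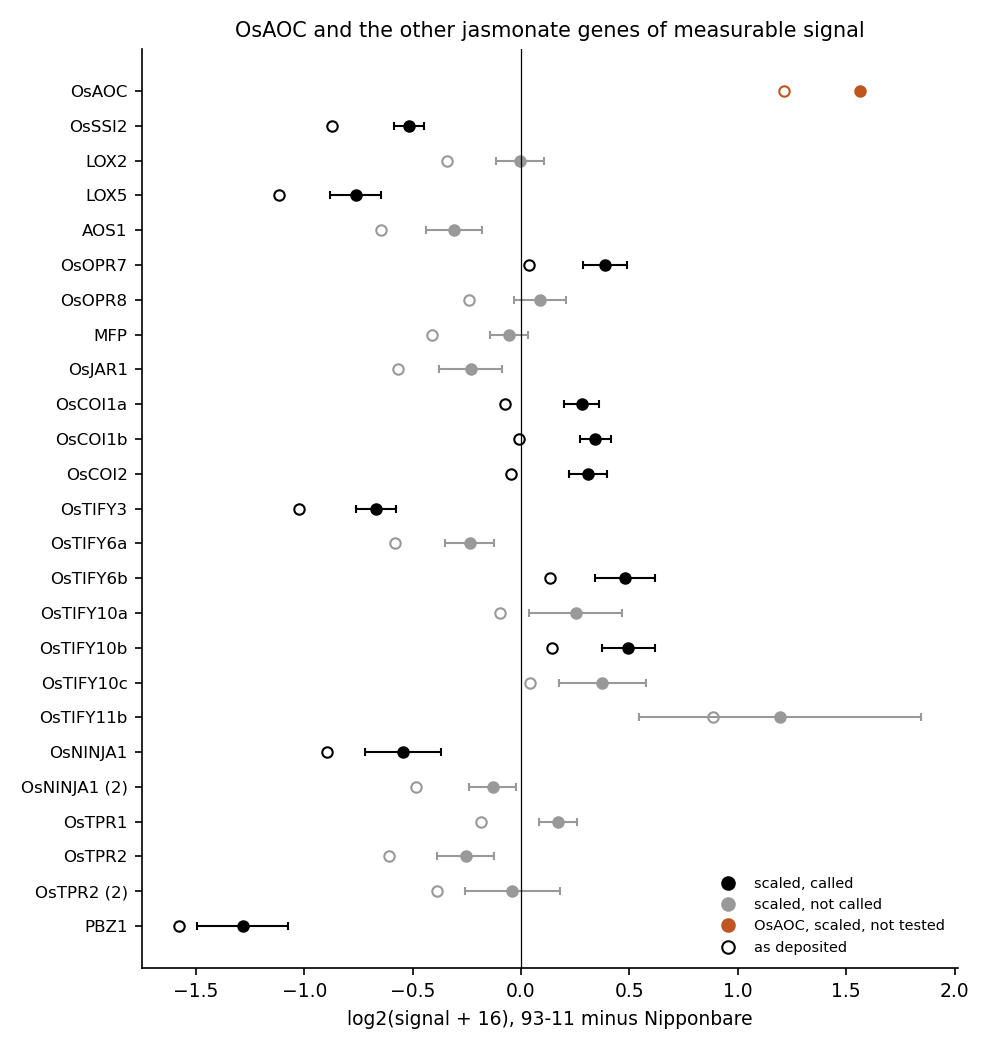
Difference in log2(signal + 16), 93-11 minus Nipponbare, of OsAOC and of the other jasmonate probe sets that exceeded log10 2.0 on average in at least 1 cultivar, in pathway order from top to bottom. Filled points are scaled values with the limma SE as bars (black where called, grey where not, OsAOC without SE or test), and open points are the values as deposited, which lie to the left of the scaled ones throughout. OsAOC lies at 1.57 scaled and 1.21 as deposited.

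Jasmonate signalling and response genes showed no common direction. Of 30 probe sets of 25 genes, limma called 5 higher and 4 lower in 93-11 on the scaled values, beside 12.6% higher and 13.6% lower of all single-gene probe sets. Their median difference was 0.18, and 13 of the 30 were above log10 2.5 in both cultivars. As deposited limma called 0 higher (0 also at an unadjusted p under 0.05) and 4 lower, with a median of -0.14, and the methods' t-test on the scaled values called 4 higher. The count of scaled rises went down to 3 without 93-11 replicate 1 or Nipponbare replicate 2, and to 2 without 93-11 replicate 2 or Nipponbare replicate 1 or 5.

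The 3 COI receptor genes were called higher on the values scaled to a common trimmed mean, and none was as deposited or with scaling to the hybridization controls. OsCOI1b averaged 3301 ± 229 in 93-11 and 2595 ± 108 in Nipponbare, without overlap (0.34, SE 0.07, limma adjusted p = 0.0033). OsCOI1a averaged 3575 ± 405 in 93-11 and 2929 ± 121 in Nipponbare, also without overlap (0.28, SE 0.08, limma adjusted p = 0.0316). OsCOI2 averaged 2077 ± 207 in 93-11 and 1672 ± 128 in Nipponbare (0.31, SE 0.09, limma adjusted p = 0.0263), and its arrays overlapped. As deposited the differences turned to -0.01 for OsCOI1b, -0.07 for OsCOI1a and -0.05 for OsCOI2, none called. OsCOI1b was still called after quantile normalization (0.30, adjusted p = 0.00619) and without trend (adjusted p = 0.0192). OsCOI1a was called neither after quantile normalization (0.23, adjusted p = 0.0607) nor without trend (adjusted p = 0.0849), and the same held for OsCOI2 (0.26, adjusted p = 0.0519, and adjusted p = 0.0681 without trend). With the hybridization controls the adjusted p was 0.607 for OsCOI1b, 0.761 for OsCOI1a and 0.701 for OsCOI2. The OsCOI1a call was also lost without 93-11 replicate 1 or 2 or Nipponbare replicate 1, 2 or 5 (adjusted p 0.0537 to 0.0805). That of OsCOI2 was also lost without 93-11 replicate 1, 2, 3 or 4 or Nipponbare replicate 1, 2 or 5 (adjusted p 0.0514 to 0.0715).

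Among the repressors, OsTIFY3 (EG2), the JAZ gene of spikelet development, fell in 93-11. Its scaled signal was 5227, 5018, 4384, 4508 and 5729 in 93-11, against 7393, 7331, 7759, 7778 and 9286 in Nipponbare, without overlap. The difference was -0.67 (SE 0.09, limma adjusted p = 0.000143), and -1.02 as deposited (adjusted p = 0.000215). OsTIFY10b, another JAZ repressor, averaged 1913 ± 338 in 93-11 and 1346 ± 174 in Nipponbare and was called higher on the scaled values (0.49, SE 0.12, limma adjusted p = 0.0119), but not as deposited (0.14, adjusted p = 0.645). For OsTIFY6b 1 of 2 probe sets was called higher (0.48, SE 0.14, limma adjusted p = 0.0273) and the other differed by -0.08 (adjusted p = 0.897). This call was lost as deposited (0.13, adjusted p = 0.766) and without 93-11 replicate 2 or Nipponbare replicate 1, 4 or 5 (adjusted p 0.0546 to 0.0716). OsNINJA1, the adaptor that joins JAZ proteins to co-repressors, was called lower with 1 of its 2 probe sets (-0.55, SE 0.18, limma adjusted p = 0.0487), which was lost without any single array other than 93-11 replicate 3 or Nipponbare replicate 5 (adjusted p 0.0618 to 0.115). Its other probe set differed by -0.13 (adjusted p = 0.513).

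Genes that respond to jasmonate or to wounding were weak. Of their 4 probe sets limma called 2 lower and 0 higher in 93-11 on the scaled values, beside 13.6% lower and 12.6% higher of all single-gene probe sets. OsLIS, not called, averaged 5.55 ± 5.41 in 93-11 and 2.44 ± 2.25 in Nipponbare (0.20, SE 0.16, limma adjusted p = 0.491). PBZ1, a pathogenesis-related protein of the PR10 family, gave 44.3, 37.3, 49.3, 63.6 and 78.6 in 93-11, against 116, 167, 197, 107 and 198 in Nipponbare. There was no overlap (-1.28, SE 0.21, limma adjusted p = 0.00059). The lectin gene salT was called lower with 1 of 2 probe sets, from 11.1 ± 4.54 in 93-11 and 34.1 ± 6.15 in Nipponbare (-0.89, SE 0.17, limma adjusted p = 0.00226), and the other probe set differed by -0.22 (adjusted p = 0.56). The transcription factor gene OsJAMyb averaged 13.6 ± 4.36 in 93-11 and 9.81 ± 2.68 in Nipponbare (0.19, SE 0.15, limma adjusted p = 0.465).

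A single array, 93-11 replicate 5, stood apart for the JAZ repressors, as was seen only after the values had been looked at. Of 15 probe sets of 13 TIFY genes, 10 had their highest scaled signal of all 10 arrays there. Of all 37053 probe sets of mean log10 signal above 1, 15.8% had theirs on that array. OsTIFY11b read 431 with one probe set on 93-11 replicate 5, where the highest of the 9 other arrays read 83.0, and its second probe set read 1253, where the highest of the others read 130. OsTIFY11e read 695 there, against 130 at most elsewhere. OsTIFY11d read 315, against 128 at most elsewhere. In all, 5 TIFY probe sets were over 2 times the highest other array there, and 0.737% of the 37053 probe sets were.

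OsbHLH148, a transcription factor gene of jasmonate responses, read 246 on the same array, against 15.7 to 27.0 on the other 93-11 arrays and 16.8 to 45.3 on the Nipponbare arrays. Its mean difference between the cultivars was 0.46 (SE 0.48, limma adjusted p = 0.624). OsAOC read 3363 on 93-11 replicate 5, within the 3079 to 3506 of 93-11 replicates 1, 2 and 4, so its level there did not stand apart with the repressors. That array also had the highest signal of the leaf gene CAB2R among the 93-11 arrays (1814 with the stronger probe set, against 210 to 688 on the others) and an actin 3'/5' ratio of 2.07. Nipponbare replicate 5 had the same actin ratio, and there OsTIFY11b read 30.01 and 38.57 and OsTIFY11e 16.2. The part of these values in the TIFY signals was not tested. Without 93-11 replicate 5 the OsAOC difference was 1.52.

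**Figure D4:**
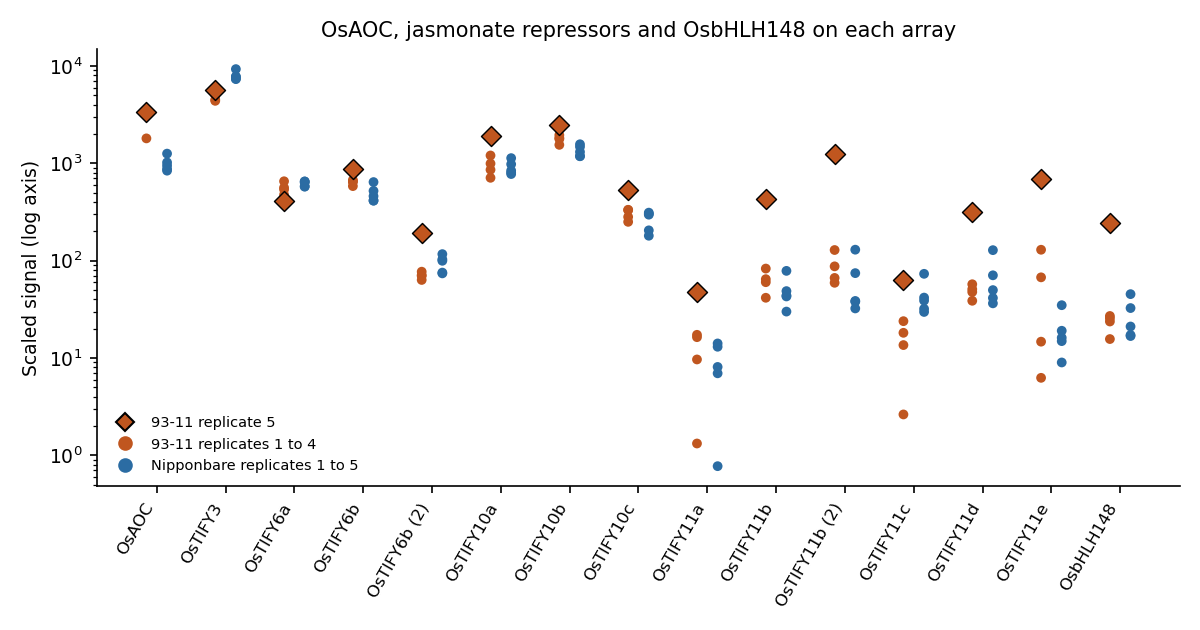
Scaled signal (log axis) of OsAOC, of TIFY probe sets that exceed 40 on at least 1 array, and of OsbHLH148, with 93-11 arrays left of the Nipponbare arrays in each column and each point 1 array. The diamond, 93-11 replicate 5, lies far above all other arrays for OsTIFY11b, OsTIFY11d, OsTIFY11e and OsbHLH148, but among the other 93-11 arrays for OsAOC.

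OsAOC lies on chromosome 3 in the RefSeq gene table, and its neighbours did not share a direction with it. The 10 nearest genes on each side that have a probe set of their own were examined, 20 genes with 26 probe sets. Limma called 6 probe sets higher and 6 lower in 93-11 on the scaled values, with a median difference of 0.06, beside 12.6% higher and 13.6% lower of all single-gene probe sets. As deposited 1 was called higher and 7 lower, with a median of -0.22. The shares of all single-gene probe sets as deposited were 1.68% higher and 17.8% lower. The count of scaled rises went down to 3 without 93-11 replicate 2, 3 or 4 or Nipponbare replicate 4. The neighbour before OsAOC, LOC4333197, was hardly read (4.85 ± 1.73 in 93-11 and 4.19 ± 2.23 in Nipponbare). The one after it, LOC4333202, averaged 224 ± 19.1 in 93-11 and 170 ± 28.5 in Nipponbare (0.38, SE 0.12, limma adjusted p = 0.0462). That call was lost without any single array other than Nipponbare replicate 1 (adjusted p 0.0541 to 0.111) and as deposited (0.05, adjusted p = 0.916).

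Large differences were found a few genes further on. LOC4333208 averaged 8.70 ± 6.93 in 93-11 and 335 ± 24.9 in Nipponbare (-3.87, SE 0.19, limma adjusted p = 3.64e-09). LOC4333209 averaged 11.9 ± 10.1 in 93-11 and 99.8 ± 16.7 in Nipponbare (-2.11, SE 0.24, limma adjusted p = 2.08e-05). These genes carry no name in the table, and both were nearly unread in 93-11. The next gene, LOC4333210, has 4 probe sets that disagreed in direction. One of them averaged 9876 ± 469 in 93-11 and 18.4 ± 9.74 in Nipponbare (8.22, SE 0.18, limma adjusted p = 1.16e-12). Another averaged 18.01 ± 3.40 in 93-11 and 1152 ± 351 in Nipponbare (-5.06, SE 0.18, limma adjusted p = 1.42e-10). The other 2 were also called lower (-1.32 and -1.005), the second not without 93-11 replicate 3 or Nipponbare replicate 3 (adjusted p = 0.0602 and 0.0554). Where probe sets of 1 gene read each cultivar so differently, no direction can be given for the gene. For OsAOC there is only 1 probe set, so no such comparison within the gene was possible.

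**Figure D5:**
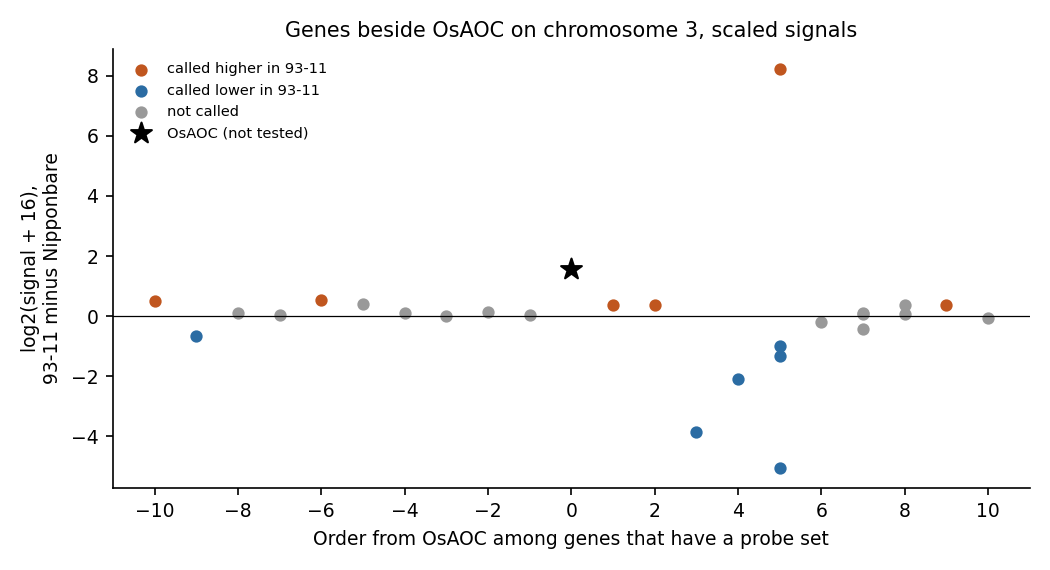
Difference in log2(signal + 16) of scaled values, 93-11 minus Nipponbare, for each probe set of the 10 nearest genes on either side of OsAOC (star, 0), by order along chromosome 3. Most neighbours lie near 0, and the probe sets of the 3rd to 5th genes after OsAOC lie between -5.06 and 8.22.

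The genes whose pattern over the 10 arrays was most like that of OsAOC were sought among 1538 probe sets of named genes, all over log10 2.5 in each cultivar. Likeness was the root mean square difference between profiles of log2(signal + 16), each centred on its own mean, for which the median over the candidates was 0.804. The arrays share the cultivar difference, so these genes are mainly ones with a rise of similar size. GI (GIGANTEA, a gene of the circadian clock and of flowering time) was the nearest at 0.252. It read 2200, 2144, 1398, 1605 and 1554 in 93-11, against 630, 647, 672, 634 and 537 in Nipponbare. On these scaled values, from which likeness was computed, its lowest 93-11 array and its highest Nipponbare array were replicate 3, as for OsAOC. As deposited GI was lowest on 93-11 replicate 4 (1287, with 1310 on replicate 3). Its highest deposited Nipponbare signal was on replicate 2 (996, with 742 on replicate 3).

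The zinc finger protein gene OsC3H49 followed at 0.281, with 1102 ± 130 in 93-11 and 405 ± 37.9 in Nipponbare. The nucleoredoxin gene OsNrx1-2 was at 0.313, with 1455 ± 113 in 93-11 and 624 ± 54.7 in Nipponbare. The kinase gene OsCIPK06 was at 0.325, with 2841 ± 73.5 in 93-11 and 1228 ± 184 in Nipponbare. OsC3H27, another zinc finger protein gene, was at 0.343, with 1945 ± 168 in 93-11 and 791 ± 65.7 in Nipponbare. None of the 5 belongs to the jasmonate lists, in which no probe set had a scaled rise as large as that of OsAOC. In each of the 5 the 93-11 and Nipponbare arrays did not overlap. Their choice by likeness to OsAOC favours such genes, so this is no separate result.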

How the data were processed

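Each value is an intensity, deposited by the authors as 1 linear, positive signal for each probe set of an array, and the submitters' processing notes name GCOS 1.3. How probe pairs were summarised or scaled is not given in the sources used here. Affymetrix controls (123 of 57381 probe sets) were left out. Genes were assigned from the annotation of the platform and RefSeq's gene table (assembly ASM3414082v1), which also gave the order of genes. Arrays were scaled to 1 trimmed mean, leaving out 2% at either end. Differences in log2(signal + 16), 93-11 minus Nipponbare, were tested over all rice probe sets by limma (3.58.1, R 4.3.3; lmFit and eBayes with trend; tested on simulated data). Tests were two-sided, with Benjamini-Hochberg adjusted p under 0.05 as the threshold. The values as deposited were fitted in the same way. The members, lists and tests were chosen with earlier results of these data known. Named were, in each role, up to 4 called probe sets of largest difference (or the 2 strongest), up to 5 called neighbours and the 5 most alike genes. The nearest neighbours, AOS3, AOS4, OsOPR8, OsLIS, the marker genes and further TIFY genes stand outside this rule and were chosen after their values were seen. Listed names without an entry in the gene table were not analysed here. Python 3.11.15 with pandas 2.3.3 and matplotlib 3.10.9 was used. Alternatives were quantile normalization, scaling to the hybridization controls, other pseudocounts, filters on low signal, other forms of the test, the replicate number as a block, and leaving out arrays. The number of arrays limits the precision.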

Additional observations from a re-analysis of the deposited data

Results flagged for a closer look

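In 70 groups of 5 arrays, 9 held an array that lay far from the other 4 on the log2 scale (Dixon's test at the 95% level), and chance flags about 1 in 20 such groups. For OsAOC this was 93-11 replicate 3, with a scaled signal of 1804 where the other 93-11 arrays read 3079 to 3506, and on the same array RFL read 867 (others 1263 to 1452). OsbHLH148 read 246 on 93-11 replicate 5, with 15.7 to 27.0 on the others, and OsC3H27 read 1656 on the same array, with 1970 to 2067 on the others. Nipponbare replicate 5 was apart for 3 genes: MFP read 1337 (others 1587 to 1667), OsTIFY3 read 9286 (others 7331 to 7778) and GI read 537 (others 630 to 672). For LOC4333210 the probe set that was higher in 93-11 read 3.47 on Nipponbare replicate 1 (others 16.5 to 29.0), and the lower one of smallest difference read 820 on Nipponbare replicate 3 (others 399 to 461).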

How the results depend on the processing

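The OsAOC difference was 1.57 scaled and 1.21 as deposited, and it lay between 1.43 and 1.58 under quantile normalization, scaling to the hybridization controls and other pseudocounts, at 1.51 without both arrays numbered 5, and between 1.502 and 1.740 when each array was left out in turn. Its rank when an array was left out ran from 1200 to 1486 in 93-11 and from 5227 to 5813 in Nipponbare. Over all probe sets, 951 were called higher as deposited, 1451 with the hybridization controls and 2686 when only those above log10 2.5 were tested, and 2686 were called lower above log10 2.0 and 1393 above 2.5, where fewer were tested. Leaving out single arrays gave 3557 to 4781 higher and 4718 to 5320 lower. Synthesis genes called higher numbered 0 as deposited, with the hybridization controls and without both arrays numbered 5 (4 were then called lower), and 1 with either filter or the ordinary t-test. Leaving out single arrays gave 1 to 2 higher and 2 to 3 lower. Signalling genes called higher numbered 0 as deposited and with the hybridization controls and 3 with quantile normalization or without trend, and 2 were lower with either filter. Single arrays left 2 to 6 higher and 3 to 4 lower. Neighbours called higher numbered 1 as deposited and with the hybridization controls, and those called lower 3 above log10 2.0 and 2 above 2.5. Single arrays left 3 to 6 higher and 5 to 6 lower. As deposited the sign turned for OsCOI1b (-0.0112), OsCOI2 (-0.0459) and OsCOI1a (-0.0745). The cause of these changes was not tested.

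Of 724 values of 34 single probe sets under these alternatives, 645 kept their direction and side of the threshold, 74 lost a call, 2 gained one and 3 turned. With the hybridization controls r9-LOX1, OsOPR7, the COI genes, OsNINJA1, OsTIFY10b, OsTIFY6b and LOC4333202 were not called. The labels number the replicates 1 to 5 in both cultivars, but same-numbered arrays did not deviate together throughout (r = 0.07, -0.01, -0.13, 0.51 and 0.54 over 12020 probe sets), and only replicates 4 and 5 matched best with their own number. With the replicate number as a block 5205 were called higher and 5484 lower, the jasmonate counts stayed the same, 4 neighbours were called higher, and 1 call of a single probe set, that of LOC4333202, was lost (adjusted p = 0.0524). Weak signals limit what can be said of the 15 synthesis probe sets below log10 2.0.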
